A study of Mus musculus with 24 samples.

Results

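The interferon response genes described here are 43 named genes that interferons induce in many cell types, chosen by symbol from a count table of 52724 gene rows for mouse hearts. All 43 were found, 42 of them by symbol and Ddx58 by its gene identifier because the table names that row Rigi, and all 43 had enough counts to be tested among 16018 genes. They comprise 5 sensors of viral nucleic acid, 5 transcription factors, 12 antiviral effectors, 2 genes of the ISG15 system, 6 interferon-inducible GTPases, 6 genes of antigen presentation, the chemokine Cxcl10 and 6 other induced genes. RNA of whole hearts was sequenced in 24 libraries of 4 genotypes, 6 of each, with 3 libraries of every genotype in each of 2 batches named by the labels.

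FKl/l MHC+ hearts carried a floxed Fkbp1a gene, which encodes the immunophilin FKBP12, with Cre recombinase driven by the α-myosin heavy chain promoter, active from embryonic day 9. FKl/l MCK+ hearts carried the same floxed gene with Cre driven by the muscle creatine kinase promoter, active from embryonic day 13, and the study's design notes that the promoters also differ in how much Cre they give. MHC CRE Only hearts carried the α-myosin heavy chain Cre, and FKl/l hearts carried the floxed gene with no Cre named. There was no group with the muscle creatine kinase Cre alone. Both promoters act in muscle cells, whereas the RNA came from every cell of the heart, so fewer cells of a type and less RNA per cell cannot be told apart. The labels give neither the age of the mice nor whether separate animals gave the libraries, so each p-value measures the spread between libraries. Libraries are called here by genotype, batch and number, so FKl/l 2-2 is number 2 of the FKl/l libraries in batch 2.

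Levels are CPM, read counts scaled to the normalised size of each library, and since CPM is not scaled to gene length, levels were compared between libraries and never between genes. Each library held 27799403 to 40412640 reads counted in genes. The targeted gene Fkbp1a lay between 43.5 and 75.7 CPM in FKl/l MHC+, between 51.1 and 81.1 CPM in FKl/l MCK+, between 81.8 and 138 CPM in MHC CRE Only and, in FKl/l, between 121 and 147 CPM. The lowest of the MHC CRE Only values belongs to 1 library that goes against its label, called below the library labelled MHC CRE Only 1-3, while the other libraries of that genotype had at least 122 CPM. MHC CRE Only 2-3 and FKl/l 1-1 held the most RNA of airway and lung epithelium, with 1199.8 and 444.2 summed CPM over 14 markers, against at most 89.4 in the others. For the members themselves FKl/l 2-2 stood apart from all other libraries, and each comparison that uses it is given with and without it.

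Interferons are secreted proteins that cells release when they sense viral or misplaced nucleic acid. Type I interferons act through the receptor of Ifnar1 and Ifnar2 and drive a complex that holds STAT2 and IRF9 to a promoter motif called the interferon-stimulated response element, whose core is GAAANNGAAA, where N is any base. Interferon gamma acts through the receptor of Ifngr1 and Ifngr2 and works through the gamma-activated site, TTCNNNGAA, and the GTPases and antigen presentation genes respond to it strongly.

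The promoters below are shown because these members carry one or both motifs and differed in how far they stood out in single libraries. Each is the 120 bases before the RefSeq start on GRCm38.p6, 5′ to 3′ on the strand of the gene, with GAAANNGAAA on either strand and TTCNNNGAA in capitals. Igtp lies at chr11:58199436-58199555 on the plus strand, Gbp7 at chr3:142530216-142530335 on the plus strand, Irf1 at chr11:53769894-53770013 on the plus strand, Isg15 at chr4:156200819-156200938 on the minus strand and Rsad2 at chr12:26456453-26456572 on the minus strand.
Igtp: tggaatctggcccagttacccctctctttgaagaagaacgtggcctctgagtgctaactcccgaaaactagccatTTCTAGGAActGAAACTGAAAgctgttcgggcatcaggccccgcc
Gbp7: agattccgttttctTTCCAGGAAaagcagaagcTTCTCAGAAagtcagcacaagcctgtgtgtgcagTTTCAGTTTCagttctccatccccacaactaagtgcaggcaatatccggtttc
Irf1: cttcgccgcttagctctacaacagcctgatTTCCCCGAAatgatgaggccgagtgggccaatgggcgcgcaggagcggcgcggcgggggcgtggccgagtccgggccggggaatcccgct
Isg15: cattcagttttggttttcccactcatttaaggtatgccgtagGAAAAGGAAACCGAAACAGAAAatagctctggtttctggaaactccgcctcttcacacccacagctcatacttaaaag
Rsad2: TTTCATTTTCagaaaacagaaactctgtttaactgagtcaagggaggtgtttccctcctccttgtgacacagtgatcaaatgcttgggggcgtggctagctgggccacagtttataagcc
In Igtp a TTCNNNGAA match began at position -45 and a GAAANNGAAA match at -34, counted from the RefSeq start. Gbp7 held TTCNNNGAA at -106 and -87 and GAAANNGAAA at -53, Irf1 held TTCNNNGAA at -90, and Rsad2 held GAAANNGAAA at -120. Isg15 held 3 GAAANNGAAA matches at -78, -72 and -66 that overlap one another. RefSeq promoters were matched for 33 of the 43 members, with 39 starts between them. Over the 250 bases before the start, GAAANNGAAA was present in 43.6% of the member promoters, against 2.98% of 32851 promoters of all genes. TTCNNNGAA, which reads the same on both strands, was present in 20.5% of the member promoters, against 7.02% of all. A match describes the letters only.

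The widest departure among the members lay in 1 library without Cre. In FKl/l 2-2, 34 of the 43 members (79.1%) were at their highest level of all 24 libraries, against 3.47% of all genes tested. The median member stood at 2.00 times the median of the other 23 libraries, with 41 of 43 above 1 and 36 above 1.5 times, whereas the median over all genes was 1.00 and 5.37% of genes exceeded 1.5 times. On the scale of the mean log2 deviation of the members from their own averages, FKl/l 2-2 stood at 1.13 and the other 23 libraries lay between -0.36 and 0.42. A single library can be described but not tested, so these values carry no p.

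**Figure D1:**
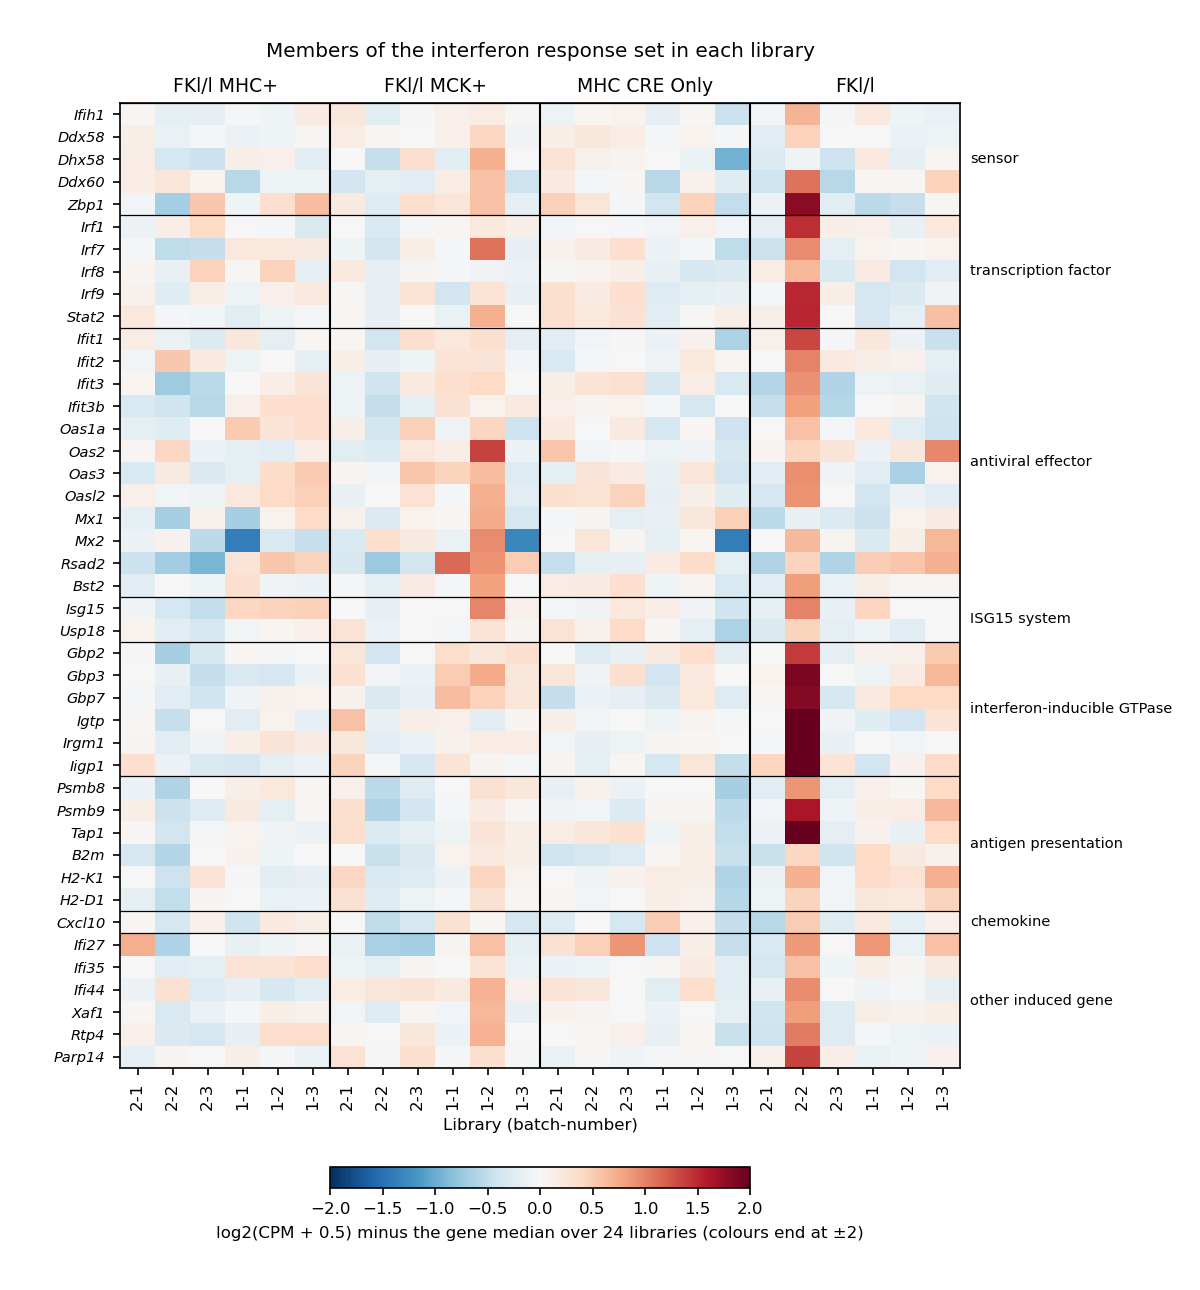
Level of each of the 43 members (rows, by role) in each of the 24 libraries (columns, by genotype, batch and number), as log2(CPM + 0.5) minus the median of the gene over the libraries. The column of FKl/l 2-2 is red for nearly all members, with 34 of 43 at their highest there, and that of FKl/l MCK+ 1-2 is paler red, most of all in the antiviral effectors.

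The interferon-inducible GTPases, which attack the vacuoles that hold intracellular parasites and bacteria, stood furthest out in FKl/l 2-2. Igtp, encoding Irgm3, was listed at 12.6 to 18.5 CPM in FKl/l MHC+ (median 16.6), 15.0 to 26.5 CPM in FKl/l MCK+ (median 18.4), 16.3 to 19.3 CPM in MHC CRE Only (median 17.2) and 13.3 to 577.7 CPM in FKl/l (median 17). The value of 577.7 CPM, from 21324 reads, was that of FKl/l 2-2 and 33.0 times the median of the other libraries, which had 481 to 917 reads each. Leaving it out, FKl/l reached 21.2 CPM, and the 4 genotypes overlapped.

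Iigp1, an effector GTPase of the same family, had 17.5 to 28.3 CPM in FKl/l MHC+ (median 20.0), 17.6 to 30.7 CPM in FKl/l MCK+ (median 22.5), 15.9 to 26.6 CPM in MHC CRE Only (median 21.3) and 17 to 489.8 CPM in FKl/l (median 28.4). FKl/l 2-2 stood at 22.6 times the median of the others, and the other FKl/l libraries ended at 30.2 CPM, among the highest values of the other genotypes. Irgm1, a regulator of these effectors, had 14.9 to 20.9 CPM in FKl/l MHC+ (median 18.5), 14.7 to 20.3 CPM in FKl/l MCK+ (median 18.8), 15.5 to 18.1 CPM in MHC CRE Only (median 17) and 15.6 to 135.7 CPM in FKl/l (median 17.1). It was the steadiest of all members outside FKl/l 2-2, with a coefficient of variation of 9.72% over the other 23 libraries, and stood at 7.83 times their median within it. The guanylate-binding proteins Gbp3, Gbp7 and Gbp2 reached 23.8, 37.8 and 48.5 CPM in FKl/l 2-2, which is 3.90, 3.8 and 2.69 times the median of the others. All 6 GTPases were highest in this library, and 5 of them stood more than 2 times above the next library. Gbp and Irgm genes have close relatives, so reads shared between copies make their single levels less certain.

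**Figure D2:**
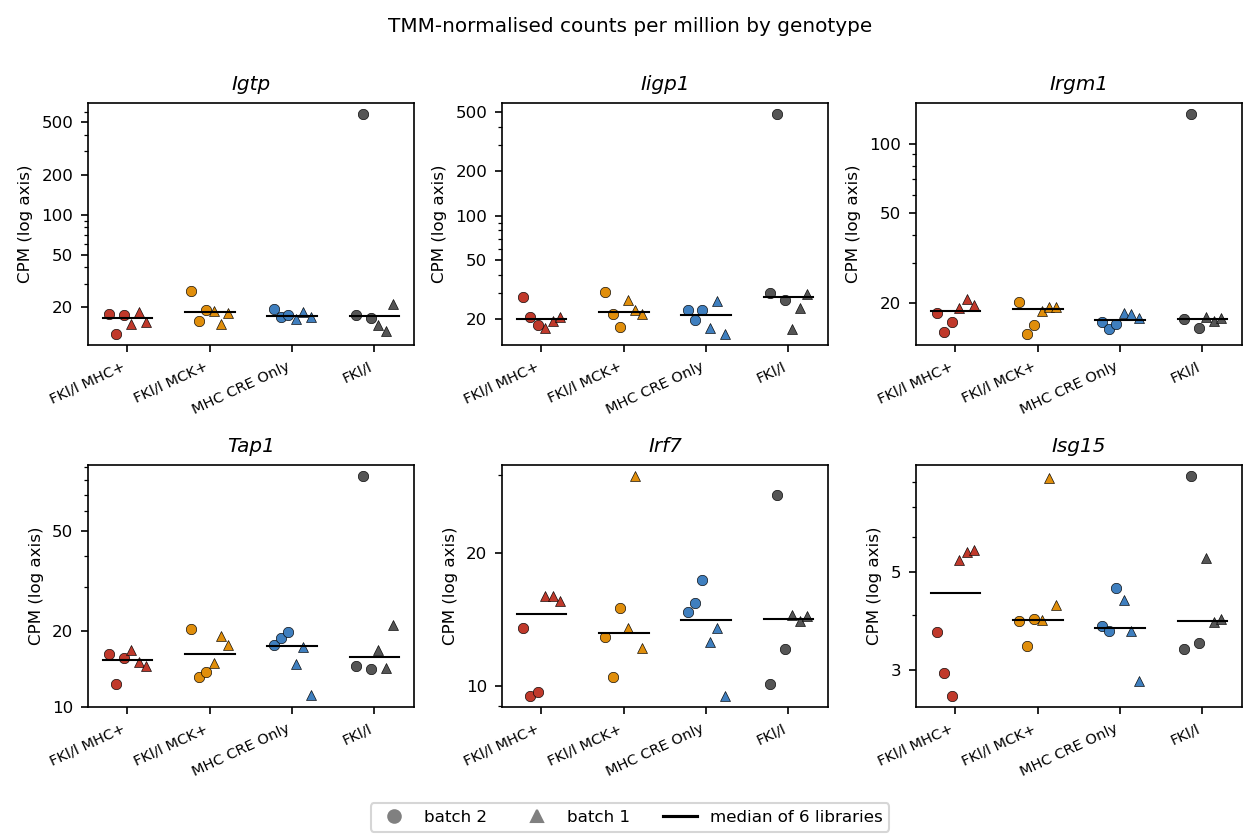
TMM-normalised CPM on a log axis of Igtp, Iigp1, Irgm1, Tap1, Irf7 and Isg15 in each library, by genotype, with a line at each median. Igtp, Iigp1, Irgm1 and Tap1 have 1 point far above the rest, FKl/l 2-2 at 577.7, 489.8, 135.7 and 83.1 CPM, whereas Irf7 and Isg15 are high in both FKl/l MCK+ 1-2 and FKl/l 2-2.

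The 6 antigen presentation genes had a median of 1.76 times the median of the other libraries in FKl/l 2-2, with values that differed widely among them. Tap1, a subunit of the peptide transporter, had 12.3 to 16.8 CPM in FKl/l MHC+ (median 15.4), 13.1 to 20.4 CPM in FKl/l MCK+ (median 16.3), 11.2 to 19.9 CPM in MHC CRE Only (median 17.5) and 14.1 to 83.1 CPM in FKl/l (median 15.8), so FKl/l 2-2 was 5.29 times the median of the others. Psmb9 and Psmb8, catalytic subunits of the immunoproteasome, stood at 3.35 and 1.88 times that median. The class I chain H2-K1 was at 1.65 times, H2-D1 at 1.36 times and their partner B2m at 1.34 times. H2-D1 ranged from 126.4 to 185.0 CPM in FKl/l MHC+ (median 164.2), 150.6 to 220.8 CPM in FKl/l MCK+ (median 178.7), 120.2 to 196.7 CPM in MHC CRE Only (median 181.3) and 165.6 to 242.5 CPM in FKl/l (median 206.7). The highest H2-D1 and H2-K1 values were those of FKl/l 1-3, with FKl/l 2-2 next at 241.8 and 205.7 CPM. The lowest H2-D1, H2-K1 and Psmb8 values of all 24 libraries, at 120.2, 82.2 and 9.01 CPM, were those of the library labelled MHC CRE Only 1-3.

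Among the transcription factors, Irf9, the DNA-binding partner of STAT2, had 19.3 to 26.1 CPM in FKl/l MHC+ (median 24.4), 17.3 to 27.7 CPM in FKl/l MCK+ (median 21.9), 19 to 28.8 CPM in MHC CRE Only (median 23) and 17.7 to 65.5 CPM in FKl/l (median 22). FKl/l 2-2 gave the 65.5 CPM, 2.94 times the median of the other libraries, and Stat2 and Irf1 stood at 2.98 and 2.83 times theirs. Irf7, which amplifies type I interferon production, was at 2.00 times, and Irf8, a factor of myeloid cells, at 1.63 times. Irf8 had 7.70 to 12.3 CPM in FKl/l MHC+ (median 9.08), 7.73 to 10.2 CPM in FKl/l MCK+ (median 8.52), 6.93 to 9.66 CPM in MHC CRE Only (median 8.44) and 6.61 to 14.2 CPM in FKl/l (median 8.70). Irf7 is the only one of the 5 factors that was not highest in FKl/l 2-2, since FKl/l MCK+ 1-2 had 29.9 CPM against its 27.0 CPM.

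The sensors differed among themselves. Zbp1, a sensor of Z-form nucleic acid, had 0.432 to 1.79 CPM in FKl/l MHC+ (median 1.16), 0.749 to 1.74 CPM in FKl/l MCK+ (median 1.22), 0.554 to 1.56 CPM in MHC CRE Only (median 1.10) and 0.535 to 4.71 CPM in FKl/l (median 0.824), with FKl/l 2-2 at 4.94 times the median of the others. Ddx58, the cytosolic RNA sensor RIG-I, had 9.37 to 11.2 CPM in FKl/l MHC+ (median 9.89), 9.78 to 13.9 CPM in FKl/l MCK+ (median 10.8), 9.97 to 12.1 CPM in MHC CRE Only (median 11.1) and 8.82 to 14.4 CPM in FKl/l (median 9.91). Its top values, 14.4 CPM in FKl/l 2-2 and 13.9 CPM in FKl/l MCK+ 1-2, were close to each other. Dhx58, a regulator of RNA sensing, was at 0.932 times the median in FKl/l 2-2 and was highest in FKl/l MCK+ 1-2. It had 1.34 to 2.26 CPM in FKl/l MHC+ (median 1.90), 1.31 to 3.55 CPM in FKl/l MCK+ (median 1.99), 0.788 to 2.54 CPM in MHC CRE Only (median 2.04) and 1.36 to 2.35 CPM in FKl/l (median 1.76). Ifih1 and Ddx60 stood at 1.66 and 2.46 times the median in FKl/l 2-2.

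Antiviral effectors, which block the translation, copying or release of viruses, had a median of 1.92 times over 12 genes in FKl/l 2-2, with a range from 0.679 times for Mx1 to 2.89 times for Oas3. Rsad2, encoding viperin, had 9.11 to 25.7 CPM in FKl/l MHC+ (median 17), 10.5 to 39.3 CPM in FKl/l MCK+ (median 19.7), 12.6 to 22.9 CPM in MHC CRE Only (median 15.5) and 11.4 to 29.3 CPM in FKl/l (median 24.6). FKl/l 2-2, at 24.3 CPM, lay inside the range of all the others but was the highest of batch 2, where the other libraries had at most 15.6 CPM. Oasl2 had 11.3 to 17.2 CPM in FKl/l MHC+ (median 13.6), 10.3 to 20.3 CPM in FKl/l MCK+ (median 12.1), 10.2 to 16.9 CPM in MHC CRE Only (median 14) and 9.37 to 23.2 CPM in FKl/l (median 10.8). Oas1a and Oas3, which like Oas2 make the second messenger that activates RNase L, were highest in FKl/l 2-2 at 7.23 and 1.54 CPM. Oas1a had 3.86 to 6.87 CPM in FKl/l MHC+ (median 5.17), 3.35 to 6.67 CPM in FKl/l MCK+ (median 4.67), 3.35 to 5.40 CPM in MHC CRE Only (median 4.71) and 3.35 to 7.23 CPM in FKl/l (median 4.59). Oas3 had 0.368 to 1.04 CPM in FKl/l MHC+ (median 0.572), 0.400 to 1.14 CPM in FKl/l MCK+ (median 0.784), 0.321 to 0.786 CPM in MHC CRE Only (median 0.579) and 0.183 to 1.54 CPM in FKl/l (median 0.471). The 4 Ifit genes stood between 1.91 and 2.78 times the median in FKl/l 2-2, although reads of Ifit3 and its near copy Ifit3b are hard to separate.

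The Mx genes, which encode dynamin-like antiviral proteins, were near the limit of detection. Mx1 had 0 to 0.537 CPM in FKl/l MHC+ (median 0.265), 0.123 to 0.835 CPM in FKl/l MCK+ (median 0.328), 0.206 to 0.613 CPM in MHC CRE Only (median 0.299) and 0.0559 to 0.392 CPM in FKl/l (median 0.187). Mx2 had 0 to 0.889 CPM in FKl/l MHC+ (median 0.500), 0.0308 to 2.02 CPM in FKl/l MCK+ (median 0.836), 0 to 1.04 CPM in MHC CRE Only (median 0.818) and 0.565 to 1.57 CPM in FKl/l (median 0.888). Their coefficients of variation over the libraries other than FKl/l 2-2 were the widest of all members, 68.3% and 60.9%.

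Isg15, a ubiquitin-like protein that is attached to other proteins, had 2.62 to 5.61 CPM in FKl/l MHC+ (median 4.49), 3.40 to 8.14 CPM in FKl/l MCK+ (median 3.90), 2.83 to 4.59 CPM in MHC CRE Only (median 3.73) and 3.35 to 8.24 CPM in FKl/l (median 3.88). The 2 top values were those of FKl/l 2-2 and FKl/l MCK+ 1-2, and Usp18, which removes ISG15 from its targets, was at 1.43 times the median in FKl/l 2-2. Cxcl10, a chemokine that draws T cells, was sparse, with 0.186 to 0.526 CPM in FKl/l MHC+ (median 0.445), 0.134 to 0.609 CPM in FKl/l MCK+ (median 0.311), 0.146 to 0.772 CPM in MHC CRE Only (median 0.322) and 0.112 to 0.786 CPM in FKl/l (median 0.374). Its highest value in FKl/l 2-2 was only 1.02 times the next. Of the other induced genes, Ifi44 had 1.63 to 2.79 CPM in FKl/l MHC+ (median 1.82), 2.31 to 3.8 CPM in FKl/l MCK+ (median 2.59), 1.78 to 2.88 CPM in MHC CRE Only (median 2.36) and 1.85 to 4.61 CPM in FKl/l (median 2.06). Parp14, Rtp4, Xaf1 and Ifi35 were highest in FKl/l 2-2 as well, at 2.61, 2.13, 1.85 and 1.53 times the median. Ifi27 did not follow this pattern: it had 22.7 to 58.9 CPM in FKl/l MHC+ (median 34.3), 21.7 to 52.9 CPM in FKl/l MCK+ (median 31.5), 25.6 to 65.6 CPM in MHC CRE Only (median 41.3) and 28.6 to 64.4 CPM in FKl/l (median 44.1). Its highest values, those of MHC CRE Only 2-3 at 65.6 CPM and FKl/l 1-1 at 64.4 CPM, fell in the libraries with the most airway and lung epithelium markers, whose part in the result was not tested, and FKl/l 2-2 had 63.7 CPM.

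Other genes of the pathway, taken from a list of 125 that was chosen with earlier results of these data known, were looked up in FKl/l 2-2 as well. Of these, 124 were found and 114 tested, and 50 of the 114 (43.9%) were at their highest there. All 9 further GTPases tested were highest in that library, including Gbp10 at 15.7 CPM, Irgm2 at 461.7 CPM and Gbp6 at 271.8 CPM, against at most 1.62, 44.4 and 32.7 CPM elsewhere. The 44 further induced genes had a median of 1.40 times the median of the other libraries with 17 at their highest in FKl/l 2-2, the 23 further antigen presentation genes 1.59 times with 15, and the 6 further chemokines 1.53 times with 2. The genes upstream lay nearer to 1: the 14 receptor and proximal signalling genes had a median of 1.01 times with 3 at their highest, and the 18 nucleic acid sensing genes 1.04 times with 4. Counting every gene of at least 1 CPM, 32 (0.2% of genes tested) stood more than 2 times above every other library in FKl/l 2-2. MHC CRE Only 2-3 had 87 such genes (0.543%), of which 0 were members and 0 further pathway genes. The 32 in FKl/l 2-2 comprised 12 members, 10 further pathway genes and 10 genes on neither list. Furthest above the next library were BC023105, Gm4841 and F830016B08Rik, all on neither list, at 96.5, 81.0 and 68.1 times, against 21.8 times for Igtp. Also on neither list was the checkpoint ligand Cd274 at 28.2 CPM, against at most 9.14 CPM elsewhere.

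The interferons themselves were not detected or nearly so. Ifnb1, Ifna1, Ifna2, Ifna4, Ifnl2 and Ifnl3 had 0 counts in all 24 libraries. Ifng, the interferon gamma gene, had 18 counts in all, spread over 9 libraries, with 3 in FKl/l MHC+ 2-2 and 3 in FKl/l 2-2, so no difference was detectable at this depth.

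Markers of immune cells were summed as well. The 14 macrophage markers summed to 209.9 CPM in FKl/l 2-2, 1.22 times the median of the other libraries, which had 155.6 to 224.0 CPM, and 2 of the 14 were highest there. This was the highest sum of batch 2, where the next was 190.9 CPM, and the 3 higher libraries were of batch 1. By genotype these sums were 159.4 to 224.0 CPM in FKl/l MHC+, 167.4 to 210.7 CPM in FKl/l MCK+, 155.6 to 200.3 CPM in MHC CRE Only and, in FKl/l, 156.4 to 209.9 CPM. The 14 lymphocyte markers summed to 10.9 CPM in FKl/l 2-2, 1.43 times the median of the others, against 5.72 to 16.2 CPM elsewhere, with none of the 14 at its highest there. This too was the highest sum of batch 2, whose median was 7.28 CPM, and the 4 higher libraries were of batch 1. Lymphocyte sums were 6.38 to 12.6 CPM in FKl/l MHC+, 6.92 to 16.2 CPM in FKl/l MCK+, 5.72 to 10.9 CPM in MHC CRE Only and, in FKl/l, 6.68 to 12.2 CPM. The 7 dendritic cell markers summed to 13.1 CPM in FKl/l 2-2 with Flt3 at 0, or 1.02 times the median of the others, and the 7 neutrophil markers to 0.623 CPM, or 1.01 times, with Ly6g, Mpo and Elane at 0. Of the lymphocyte list only Ncr1 was at 0. The part of these cells in the levels of the members was not tested. Its 12 endothelial markers summed to 819.9 CPM with 20 libraries higher, its 9 fibroblast markers to 776.1 CPM, the lowest of all, and its 10 cardiomyocyte markers to 0.928 times the median of the others. Its 14 airway and lung epithelium markers summed to 9.08 CPM, 1.66 times the median of the others, with 9 libraries higher and 3 of the 14 at 0 (Sftpb, Sftpc and Epcam). Fkbp1a was at 121 CPM in FKl/l 2-2, the lowest of FKl/l, whose other libraries had 123 to 147 CPM.

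The promoter motifs were set beside the fold of FKl/l 2-2 over the median of the other libraries. The 4 members with both motifs had folds of 1.56 to 33.0 with a median of 2.80, the 13 with GAAANNGAAA alone 1.34 to 7.83 with a median of 2.46, the 4 with TTCNNNGAA alone 1.63 to 2.83 with a median of 1.97, and the 12 with neither 1.36 to 5.29 with a median of 1.89. These ranges overlapped. Of the promoters printed above, that of Igtp belongs to the member that stood out furthest in FKl/l 2-2, that of Isg15 to a member that was also high in FKl/l MCK+ 1-2, and that of Rsad2 to the member with the lowest adjusted p between batches, given below.

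A library of the deletion group, FKl/l MCK+ 1-2, was the next highest, with other members in front. Its mean log2 deviation of the members was 0.42, and with FKl/l 2-2 set aside the remaining 22 libraries ended at 0.13. The median member stood at 1.36 times the median of those 22, with 18 of 43 over 1.5 times, against 1.01 times and 11.9% for all genes. Among the highest ratios, Oas2 had 15.5 CPM and Mx1 0.835 CPM, both at 2.81 times, and Mx2 2.02 CPM at 2.68 times. Irf7 had 29.9 CPM at 2.21 times and Isg15 8.14 CPM at 2.11 times, while Usp18 was at 1.27 times. Rsad2 had 33.4 CPM, 2.15 times the median over both batches, but this lay within its batch 1 range of 15.3 to 39.3 CPM. The 12 antiviral effectors had a median of 1.74 times, the 5 sensors 1.71, the 2 ISG15 genes 1.69 and the 6 other induced genes 1.6 times. The 5 transcription factors had a median of 1.26 times and the 6 antigen presentation genes 1.25 times. The 6 GTPases had one of 1.14 times, with a range from 0.856 times for Igtp to 1.74 times for Gbp3. Differences between these roles were not tested. In this library 5 members (11.6%) and 18 of the 114 other pathway genes (15.8%) were at their highest, against 8.14% of all genes. FKl/l MCK+ 1-2 also had the highest sums of fibroblast and endothelial markers of all libraries, 1247.3 and 1185.4 CPM, against at most 975.2 and 1127.8 CPM elsewhere. Of the 9 fibroblast markers 5 were at their highest there, and of the 12 endothelial markers 3. Its macrophage markers summed to 210.7 CPM with 2 libraries higher, and its lymphocyte markers to 11.5 CPM with 3 higher. Airway and lung epithelium markers summed to 33.9 CPM in it, with 6 libraries higher. The part of these cells in the result was not tested.

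**Figure D3:**
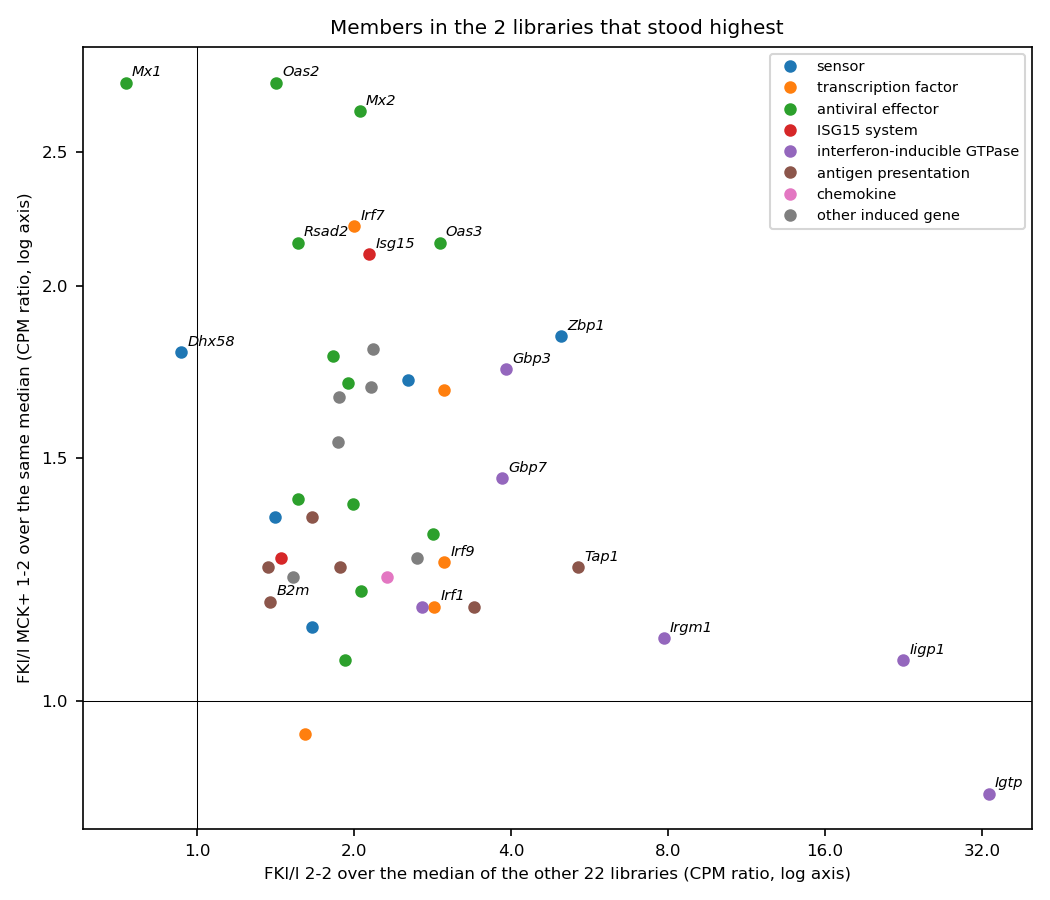
Each point is a member, placed by its CPM ratio in FKl/l 2-2 (horizontal) and in FKl/l MCK+ 1-2 (vertical) over the median of the other 22 libraries, both on log axes and coloured by role. The GTPases lie far right and low, with Igtp at 33.0 and 0.856, while Oas2 at 1.42 and 2.81 and Mx1 at 0.730 and 2.81 lie high and left.

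The study asked what loss of FKBP12 in heart muscle does, and the first comparison set FKl/l MHC+ against FKl/l. No member was called, that is, none had an adjusted p under 0.05 in edgeR's quasi-likelihood test, where 1.71% of all genes were called. DESeq2 and limma voom also called none, and the count at an unadjusted p under 0.05 was 9 by edgeR, 7 by DESeq2 and 5 by limma voom, all lower in FKl/l MHC+. Of all 16018 genes, 2360 had an unadjusted p under 0.05 by edgeR, 1196 of them lower. The median log2 fold change of the members was -0.22, with 37 of 43 below 0, whereas the median over all genes was -0.0035. Without FKl/l 2-2 the median was 0.03 with 19 below 0 and none called. In batch 2 alone, which holds FKl/l 2-2, the median was -0.49 and in batch 1 alone it was 0.02. By library, the mean log2 deviation of the members had a median of -0.07 in FKl/l MHC+, 0.01 in FKl/l MCK+, 0.00 in MHC CRE Only and -0.04 in FKl/l.

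All 6 GTPases were below 0 in FKl/l MHC+ against FKl/l, and Igtp and Iigp1 had the lowest values of all members. The log2 fold change of Igtp was -2.37 (SE 0.813, adjusted p = 0.157) with all 24 libraries and -0.05 without FKl/l 2-2. That of Iigp1 was -2.03 (SE 0.66, adjusted p = 0.133) and -0.31 without it, and that of Irgm1 was -0.93 (SE 0.45, adjusted p = 0.343) and 0.12 without it. Gbp3 had the lowest adjusted p of the members, 0.126, at a log2 fold change of -0.91 (SE 0.293), or -0.42 without FKl/l 2-2. Tap1 had -0.80 (SE 0.352) and -0.10 without it. Mx2 had -1.10 (SE 0.634) and -1.0 without it, so its value did not rest on FKl/l 2-2, and FKl/l MHC+ has a library at 0 for it. At the other end Irf8, Oas1a, Oasl2 and Mx1 had 0.09, 0.10, 0.16 and 0.17. The 6 antigen presentation genes were all below 0, from -0.80 to -0.21, and were below 0 without FKl/l 2-2 too, from -0.33 to -0.07 with a median of -0.18 and none called. In MHC CRE Only against FKl/l all 6 were below 0 as well, and 5 of 6 without FKl/l 2-2, with a median of -0.15. In FKl/l MHC+ against MHC CRE Only 3 of the 6 were below 0, with a median of 0.01. H2-D1 had -0.34 (SE 0.119, adjusted p = 0.157) and -0.27 without it.

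FKl/l MCK+ was compared with the same FKl/l libraries, so both comparisons share whatever is particular to those. No member was called, where 0.0499% of all genes were called. DESeq2 and limma voom called none either, although DESeq2 gave an adjusted p to only 11958 genes there, of which 20 were called. The counts at an unadjusted p under 0.05 were 4, 1 and 0 by edgeR, DESeq2 and limma voom, all lower in FKl/l MCK+. By edgeR 839 of all 16018 genes had an unadjusted p under 0.05. The median log2 fold change was -0.15 with 30 of 43 below 0 (all genes 0.0043), it was 0.11 with 9 below 0 without FKl/l 2-2, and it was -0.27 without FKl/l MCK+ 1-2. It was -0.37 in batch 2 alone and 0.14 in batch 1 alone. Igtp had -2.18 (SE 0.8, adjusted p = 0.825) and 0.16 without FKl/l 2-2, Iigp1 had -1.80 and -0.12, Irgm1 had -0.95 and 0.11, and Tap1 had -0.66 and 0.03. The highest were Mx1 at 0.77 (SE 0.571), Oas3 at 0.36, Dhx58 at 0.27 and Ifi44 at 0.19, none of them called.

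**Figure D4:**
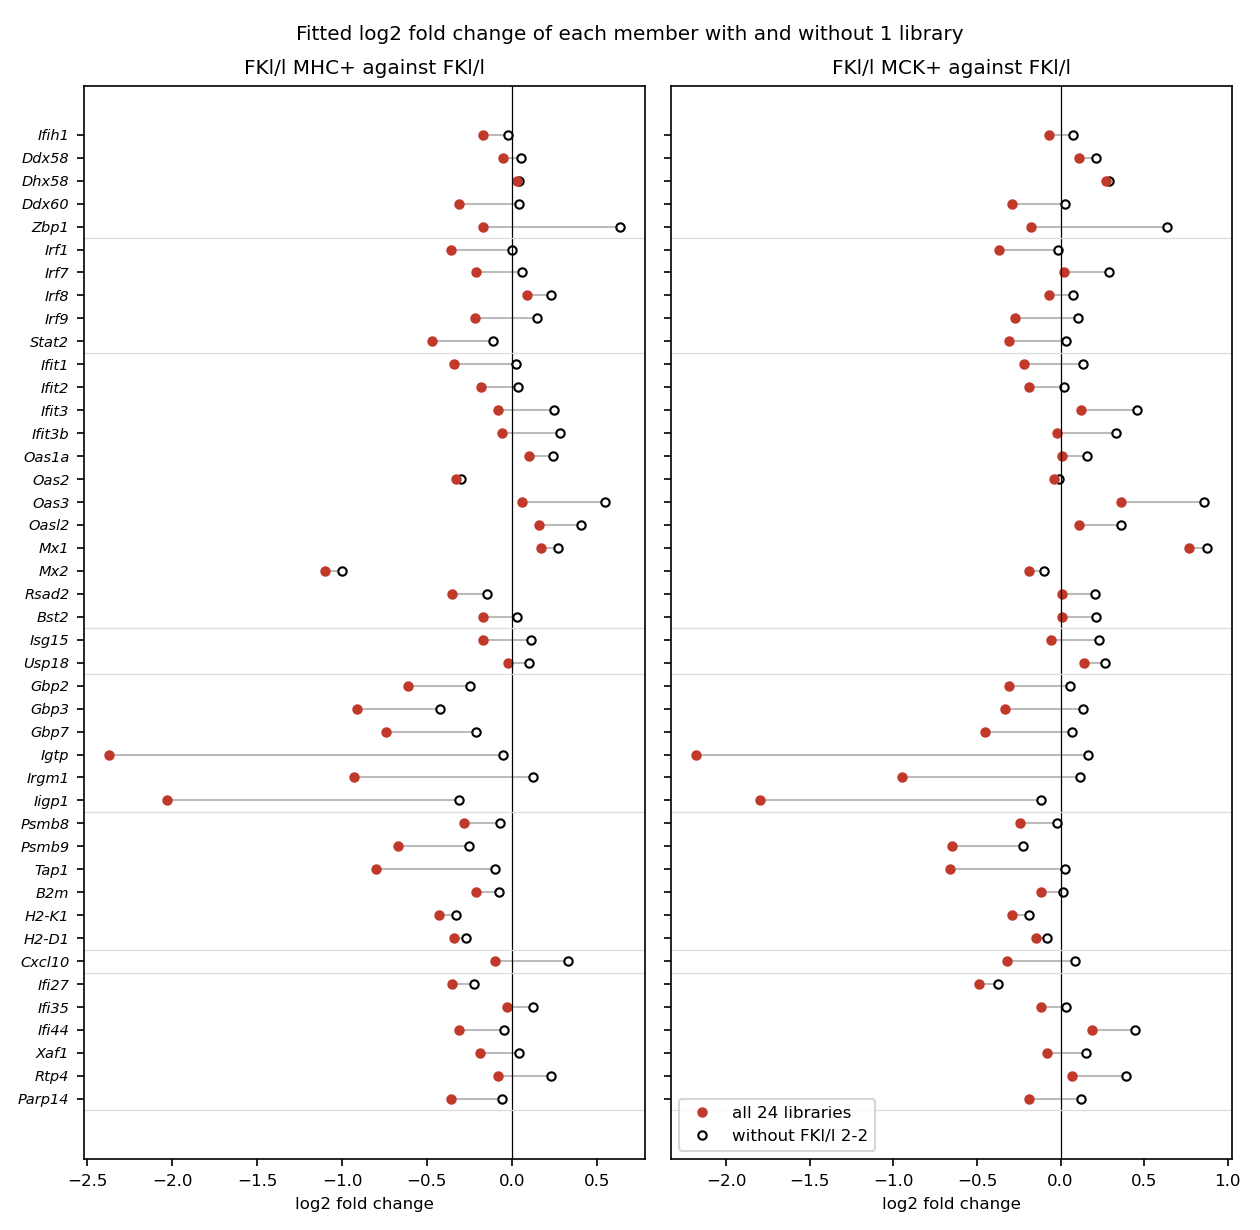
Fitted log2 fold change of each member in FKl/l MHC+ and in FKl/l MCK+, both against FKl/l. Filled points use all 24 libraries and open points leave out FKl/l 2-2, with a grey line joining the 2 values of a member. Igtp moves to -0.05 and 0.16 and Iigp1 to -0.31 and -0.12 without that library, while the antigen presentation genes stay below 0 in FKl/l MHC+.

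The Cre driver was examined in turn. In FKl/l MHC+ against MHC CRE Only, which does not use the FKl/l libraries, no member was called by edgeR, DESeq2 or limma voom, where edgeR called 1.87% of all genes, and 0, 0 and 1 members had an unadjusted p under 0.05. By edgeR 2523 of all 16018 genes had an unadjusted p under 0.05. The median log2 fold change was 0.00 with 21 of 43 below 0, against -0.016 for all genes, and the lowest adjusted p was 0.451, for Irf8. That median was -0.20 in batch 2 alone and 0.19 in batch 1 alone, and it was -0.03 with 28 below 0 without the library labelled MHC CRE Only 1-3. In MHC CRE Only against FKl/l no member was called by any of the 3 tools, where edgeR called 0.0437% of all genes. DESeq2 gave an adjusted p to only 7001 genes there and called 207 of them. A member without an adjusted p could not be called by it. By edgeR, DESeq2 and limma voom, 7, 10 and 3 members had an unadjusted p under 0.05, all lower in MHC CRE Only. By edgeR 2069 of all 16018 genes had an unadjusted p under 0.05. The median of the members was -0.27 with 36 below 0, and 0.01 with 19 below 0 without FKl/l 2-2, and Iigp1 had the lowest adjusted p, 0.207. This median was -0.20 with 34 below 0 when the library labelled MHC CRE Only 1-3 was left out, -0.24 in batch 2 alone and -0.14 in batch 1 alone. The 6 GTPases were below 0 in each of the 3 comparisons against FKl/l, which share the library FKl/l 2-2.

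Between the deletions, FKl/l MHC+ against FKl/l MCK+, no member was called by the 3 tools, where edgeR called 2.15% of all genes, and 1 member by each tool had an unadjusted p under 0.05. By edgeR 2460 of all 16018 genes had an unadjusted p under 0.05. The median log2 fold change was -0.14 with 32 of 43 below 0, against -0.0071 for all genes, and it was -0.01 without FKl/l MCK+ 1-2 and -0.11 in each batch alone. Ifi44 had the lowest adjusted p, 0.208, at a log2 fold change of -0.50 (SE 0.198). In the authors' deposited tables of these 5 comparisons, all 43 members were listed and each had an adjusted p of 1. Few genes of any kind were called there. Of 16363 genes, 23 had an adjusted p under 0.05 in FKl/l MHC+ against FKl/l and 2 in FKl/l MCK+ against FKl/l. There were 11 in FKl/l MHC+ against MHC CRE Only, 1 in MHC CRE Only against FKl/l and 14 in FKl/l MHC+ against FKl/l MCK+.

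More genes were called between batches than in any comparison of genotypes, 2 members among them. The batch comparison has 12 libraries on each side and each genotype comparison 6, so numbers called do not measure the size of the differences. In batch 2 against batch 1, edgeR called 38.4% of all genes and 2 of the 43 members, both lower in batch 2, where 22.2% of all genes were called higher and 16.2% lower. Rsad2 fell by 0.92 on the log2 scale (SE 0.14, adjusted p = 2.5e-05). It had 9.11 to 12.9 CPM in batch 2 and 21.2 to 25.7 CPM in batch 1 of FKl/l MHC+, and 10.5 to 14 CPM in batch 2 and 25.4 to 39.3 CPM in batch 1 of FKl/l MCK+. In MHC CRE Only it had 12.6 to 15.6 CPM in batch 2 and 15.3 to 22.9 CPM in batch 1, and in FKl/l it had 11.4 to 24.3 CPM in batch 2 and 24.9 to 29.3 CPM in batch 1. The batches did not overlap except in MHC CRE Only. B2m fell by 0.31 on the log2 scale (SE 0.0893, adjusted p = 0.00842), and its batches overlapped in FKl/l MHC+, MHC CRE Only and FKl/l. Both calls held in each of 24 fits without 1 of the libraries, where the adjusted p was at most 7.77e-05 for Rsad2 and 0.0173 for B2m.

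Without FKl/l 2-2, 8 members were called lower in batch 2, adding Ifit3b, Isg15, Gbp2, Gbp7, Irgm1 and Ifi35, with log2 fold changes between -0.40 for Isg15 and -0.17 for Irgm1 among those added. Irgm1 had 0.27, not called, with that library. Of all genes, 5909 of 16194 were called in either direction in that fit. Batch 2 libraries had a mitochondrial share of counts of 25.7 to 29.9% and batch 1 libraries 27.6 to 36.5%. Summed cardiomyocyte markers were 48561.7 to 55467.8 CPM in batch 2 and 55382.8 to 62268.2 CPM in batch 1. Summed endothelial markers were 737.5 to 957.0 CPM in batch 2 and 864.9 to 1185.4 CPM in batch 1. Their part in the batch result was not tested. A test of the interaction of genotype with batch called no member by edgeR, the tool run for it, where 4.91% of all genes were called. Its lowest adjusted p among the members was 0.152, for Igtp. At an unadjusted p under 0.05 there were 5 members (Ifit2, Ifit3b, Oas1a, Igtp and Iigp1), against 3997 of 16018 genes. The interaction called no member without FKl/l 2-2 either, where 520 of 16194 genes were called. There 10 members had an unadjusted p under 0.05, the lowest adjusted p was 0.0511, for Rsad2, and that of Igtp was 0.842 and of Iigp1 0.879.

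**Figure D5:**
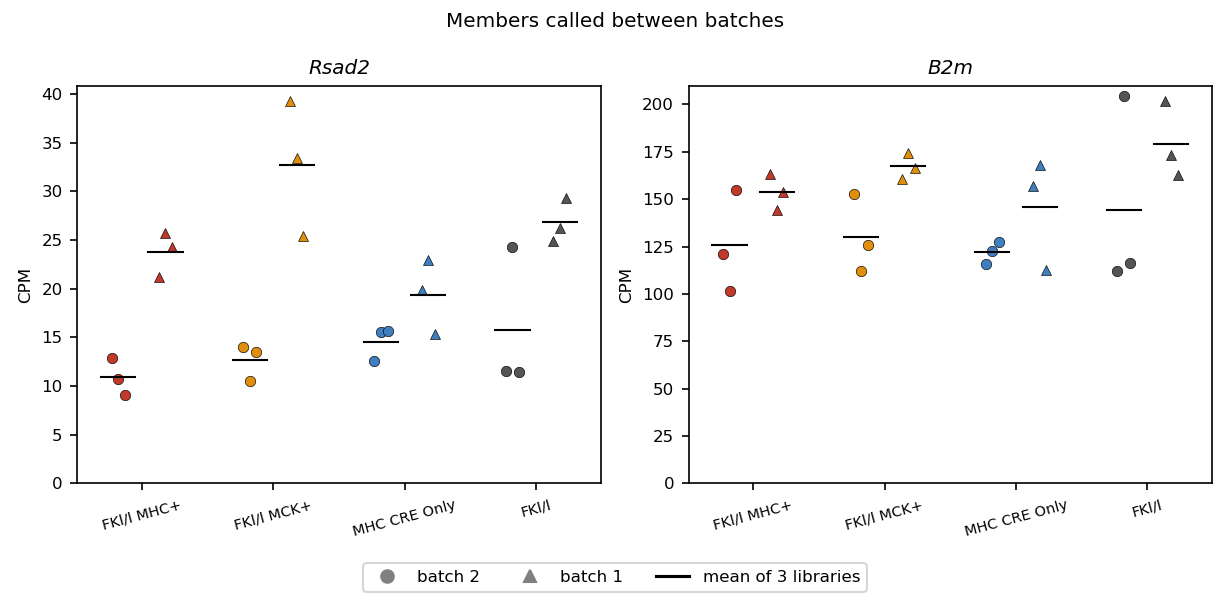
CPM of Rsad2 and B2m in each library by genotype, batch 2 (circles) left of batch 1 (triangles), with a line at each mean of 3 libraries. Rsad2 lies at 9.11 to 14 CPM in batch 2 of both deletions and at 21.2 to 39.3 CPM in batch 1, and the batches of B2m overlap in all genotypes except FKl/l MCK+.

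While no member was called between genotypes, 6 of the 114 other pathway genes were called in at least 1 comparison of genotypes. In FKl/l MHC+ against FKl/l, 2 were higher and 1 lower, where 1.06% of all genes were called higher and 0.649% lower. Against MHC CRE Only 3 were higher and none lower, where the shares of all genes were 1.09% and 0.78%. Against FKl/l MCK+ 3 were higher and 1 lower, where they were 0.986% and 1.17%, while none was called in FKl/l MCK+ against FKl/l or in MHC CRE Only against FKl/l. Ccl2 and Ccl7, chemokines that recruit monocytes, rose in FKl/l MHC+ in all 3 of its comparisons. Ccl2 had 1.18 to 5.43 CPM in FKl/l MHC+ (median 2.42), 0.861 to 1.51 CPM in FKl/l MCK+ (median 1.15), 0.587 to 1.55 CPM in MHC CRE Only (median 1.07) and 0.600 to 1.46 CPM in FKl/l (median 1.14). Its log2 fold change was 1.39 (SE 0.271, adjusted p = 0.00467) against FKl/l, 1.43 (adjusted p = 0.00512) against MHC CRE Only and 1.29 (adjusted p = 0.0106) against FKl/l MCK+.

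Ccl7 had 1.5 to 5.85 CPM in FKl/l MHC+ (median 2.12), 0.294 to 0.930 CPM in FKl/l MCK+ (median 0.667), 0.467 to 1.54 CPM in MHC CRE Only (median 0.774) and 0.287 to 1.52 CPM in FKl/l (median 0.689). Its log2 fold change was 1.89 (SE 0.382, adjusted p = 0.0076) against FKl/l, 1.76 (adjusted p = 0.0177) against MHC CRE Only and 2.15 (adjusted p = 0.00406) against FKl/l MCK+. Both genes are also induced outside the interferon response. Ccl2 was highest in FKl/l MHC+ 2-2 and 2-3, at 5.43 and 5.21 CPM, as was Ccl7, at 4.24 and 5.85 CPM. These libraries also had the highest summed neutrophil markers, 2.26 and 3.99 CPM, against at most 1.25 CPM elsewhere, whose part in the result was not tested. Those 2 sums came almost only from S100a8, S100a9 and Retnlg. Ly6g, Mpo and Camp were at 0 in both libraries, and Elane was at 0 and 0.0291 CPM. The 4 other FKl/l MHC+ libraries had 1.18 to 2.69 CPM of Ccl2 and 1.5 to 2.3 CPM of Ccl7. None of these 6 calls was lost when 1 library was left out, with adjusted p up to 0.0497. Slfn5 rose by 0.40 in FKl/l MHC+ against MHC CRE Only (adjusted p = 0.019), with means of 62.7 ± 12.5 CPM in FKl/l MHC+, 60.3 ± 12.4 CPM in FKl/l MCK+, 47.0 ± 5.74 CPM in MHC CRE Only and, in FKl/l, 60.7 ± 6.2 CPM (SD, n = 6 libraries each). MHC CRE Only was thus the lowest group, and the call was lost without FKl/l MHC+ 1-2 (adjusted p = 0.056). The other calls were less steady. H2-T23, a nonclassical class I gene, fell by 0.50 against FKl/l (adjusted p = 0.0375) and was lost in 8 of 24 such fits, including that without FKl/l 2-2 (adjusted p = 0.0931). Socs3, an inhibitor of cytokine signalling, rose by 0.52 and Sp100, a nuclear body protein, fell by 0.36 against FKl/l MCK+ (adjusted p = 0.0395 and 0.0288), calls lost in 9 of these fits for Socs3 and in 7 for Sp100.

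Last, the members were compared with one another over libraries, after the mean of each genotype and batch was removed. Over 24 libraries the median Pearson correlation of the 903 pairs of members was 0.619, against -0.0255 between members and other genes. These pairs share libraries and normalisation, and genes are not independent. Without FKl/l 2-2 the median was 0.359, and without FKl/l MCK+ 1-2 as well it was 0.296. The 15 pairs of antigen presentation genes kept theirs, at 0.818 over 24 libraries and 0.824 without FKl/l 2-2, while the 15 pairs of GTPases had 0.897 and 0.463. Pairs of a GTPase with an antiviral or ISG15 gene had 0.608 and 0.185. Ranked by correlation with the mean of the members, genes among the 5 most alike over 24 libraries were Psmb10 (0.922), Irgm2 (0.880), Tap2 (0.864) and Trim21 (0.863), and the 5 most alike over the 23 libraries without FKl/l 2-2 were Phf11d (0.920), Ifi27l2a (0.892), Brd9 (0.861), Tspo (0.861) and Sp100 (0.860).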

How the data were processed

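RNA of whole mouse hearts was sequenced in 24 libraries from a kit that keeps strand (NEBNext Ultra II Directional), per the labels. The authors deposited 1 table of whole-number read counts per gene, as raw values. The submitters' processing notes name STAR, RSEM, Trim Galore, FastQC and bcl2fastq 2.17, and the build mm10. What each did, which annotation was used and how strand was set is not given in the sources used here. Reads shared by near-identical genes may be split between them. Per the file headers, the authors' deposited comparison tables hold log2 fold changes, a test statistic (a score) and p-values. Rows named by transcript (3660, with 0.873 to 4.28% of a library's counts) were left out.

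Levels are TMM-normalised CPM. All 24 libraries entered the quasi-likelihood test of edgeR 4.0.16 in R 4.3.3 (alternatives DESeq2 1.42.0 and voom of limma 3.58.1) with terms for genotype and batch, after filterByExpr, with Benjamini-Hochberg adjustment over 16018 genes and a threshold of 0.05. It was tested on simulated counts for FKl/l MHC+ against FKl/l, drawn without batch differences or an outlying library. There it called 67% of 100 genes changed 1.5-fold and 96% of 100 changed 2-fold. How it behaves with such differences or such a library was not simulated. No test used a minimum fold. In the genotype comparisons DESeq2 gave an adjusted p to between 7001 and 14740 genes, and a gene without one could not be called by it. Deviations used log2(CPM + 0.5). Libraries of a genotype differed beyond counting noise, with a chi-square per degree of freedom between 7.87 and 142.9. No per-sample column of the count table was left unused. Members and lists were chosen with earlier results of these data known. Members given library by library were the 4 highest and 4 lowest fold changes of each deletion against FKl/l, the 4 most variable and the most abundant of each role. Genes of the other lists were named when called or when they stood out in FKl/l 2-2, after their values were seen. Single values of 1 further pathway gene are not reported here. Sequences are RefSeq's. Gene positions were not used for any test.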

Additional observations from a re-analysis of the deposited data

Results flagged for a closer look

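Within each genotype, the highest or lowest of the 6 libraries was examined for a gap to its neighbour whose share of the range of the group was above Dixon's 95% critical value, for each member that reached 1 CPM in the group. Of 162 such groups 45 had one, where the critical value is set for about 1 in 20 in independent, normally distributed groups. The members correlated over libraries, so these groups were not independent, and no share over all tested genes is given. FKl/l 2-2 accounted for 27 of the 45 and FKl/l MCK+ 1-2 for 8.

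In FKl/l 2-2 these were the sensors Ifih1 at 11.8 CPM, Ddx58 at 14.4 CPM and Zbp1 at 4.71 CPM. They were also the factors Irf1 at 55.7 CPM, Irf7 at 27.0 CPM, Irf9 at 65.5 CPM and Stat2 at 37.7 CPM. Antiviral effectors were Ifit1 at 9.16 CPM, Ifit2 at 17.9 CPM, Ifit3 at 23.7 CPM, Ifit3b at 5.45 CPM, Oas3 at 1.54 CPM, Oasl2 at 23.2 CPM and Bst2, which tethers budding virus, at 31.8 CPM. Usp18 was at 4.47 CPM. All 6 GTPases were among them, with Gbp2 at 48.5 CPM, Gbp3 at 23.8 CPM, Gbp7 at 37.8 CPM, Igtp at 577.7 CPM, Irgm1 at 135.7 CPM and Iigp1 at 489.8 CPM. Of antigen presentation these were Psmb9 at 19.6 CPM and Tap1 at 83.1 CPM, and of the other induced genes Ifi44 at 4.61 CPM, Xaf1 at 11.1 CPM, Rtp4 at 14.8 CPM and Parp14 at 43 CPM.

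In FKl/l MCK+ 1-2 they were Irf7 at 29.9 CPM, Stat2 at 21.3 CPM, Oas2 at 15.5 CPM, Bst2 at 31.1 CPM, Isg15 at 8.14 CPM, Ifi44 at 3.8 CPM, Xaf1 at 9.81 CPM and Rtp4 at 11.6 CPM. The library labelled MHC CRE Only 1-3 was set apart at the low end, with Psmb8 at 9.01 CPM, H2-K1 at 82.2 CPM and H2-D1 at 120.2 CPM. The others were single genes in a library: Ifit3b at a low 2.17 CPM in MHC CRE Only 1-2, Oas2 at 8.62 CPM in MHC CRE Only 2-1, Bst2 at 22 CPM in FKl/l MHC+ 1-1, Igtp at 26.5 CPM in FKl/l MCK+ 2-1, Iigp1 at 28.3 CPM and Ifi27 at 58.9 CPM in FKl/l MHC+ 2-1, and Ifi44 at 2.79 CPM in FKl/l MHC+ 2-2.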

How the results depend on the processing

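For the 43 members, the counts called in the 5 comparisons of genotypes were 0 under every setting run, except 1 in FKl/l MHC+ against FKl/l MCK+ when only the compared genotypes entered the fit (Gbp3, lower, adjusted p = 0.0467 by edgeR). Leaving out 1 library in turn gave 0 to 0 in each of these and in the interaction of genotype with batch, and 2 to 8 members between batches, the 8 without FKl/l 2-2. Without FKl/l 2-2 and FKl/l MCK+ 1-2 together, chosen after seeing the data, 9 members were called between batches, where 5709 of 16108 genes were, and 2 in the interaction (Irf7 and Oasl2), where 374 genes were. Without the filter on low counts the interaction called 26 members among 2481 of 30118 genes, and the cause was not tested. Leaving out 1 library gave 0 to 1469 genes called for it, against 787, with 0 without any of MHC CRE Only 2-1, 2-2 or 2-3 in turn and 4 when the library labelled MHC CRE Only 1-3 was left out. Of the 114 other pathway genes, leaving out 1 library gave 2 to 5 called in FKl/l MHC+ against FKl/l (3 with all), 2 to 4 against MHC CRE Only (3 with all), 2 to 5 against FKl/l MCK+ (4 with all), 20 to 36 between batches (27 with all) and 0 to 5 in the interaction (3 with all). DESeq2 called 7 in FKl/l MHC+ against FKl/l, 5 against MHC CRE Only and 3 in MHC CRE Only against FKl/l. Limma voom called 2 in FKl/l MHC+ against FKl/l MCK+, where it called 317 of 16018 genes. Batch 1 alone gave 0 in FKl/l MHC+ against FKl/l and 2 against FKl/l MCK+, where 214 and 211 of 16154 genes were called. Batch 2 alone gave 1, 6 and 0 against FKl/l, MHC CRE Only and FKl/l MCK+, where 160, 915 and 171 of 16002 genes were called. Without a batch term FKl/l MHC+ had 1 against MHC CRE Only and 1 against FKl/l MCK+. Leaving out FKl/l 1-1, MHC CRE Only 2-3 and also the library labelled MHC CRE Only 1-3, it had 1 against MHC CRE Only, and the interaction 0. Of all 16337 genes in that fit, 228 and 61 were called in these. Without FKl/l 2-2 and FKl/l MCK+ 1-2, FKl/l MHC+ had 5 against MHC CRE Only and 2 against FKl/l MCK+, where 351 and 205 of 16108 genes were called. Without the filter the interaction had 27, where 2481 of 30118 genes were called. The cause of these differences was not tested. Over all genes, the 5 genotype comparisons, taken in the sequence FKl/l MHC+ against FKl/l, FKl/l MCK+ against FKl/l, FKl/l MHC+ against MHC CRE Only, MHC CRE Only against FKl/l and FKl/l MHC+ against FKl/l MCK+, had 553, 20, 591, 207 and 578 calls by DESeq2, 274, 8, 299, 7 and 345 by edgeR, and 120, 5, 42, 4 and 103 by edgeR without a batch term. Of 41 uncalled or batch log2 fold changes of members followed over the settings, 27 changed sign in at least 1, 14 of them without FKl/l 2-2, as did 4 of 6 medians. With the number as a replicate block, 0 members were called in all 5 comparisons and, taken in that sequence, 3, 0, 3, 0 and 4 other pathway genes. Libraries sharing a number did not deviate together (36 pairs, correlation -0.274 to 0.179, 6 over 0.1), so numbers were not read as pairs. Mx1, Mx2 and Cxcl10 were too shallow at these depths for differences of modest size.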

Other observations

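Other genes of the interferon pathway differed between batches. Of the 114 tested, 14 were called higher and 13 lower in batch 2 by edgeR's quasi-likelihood test, where 22.2% and 16.2% of all genes were called higher and lower. Those lower in batch 2 included the further induced genes Mndal at a log2 fold change of -0.49, Ifi211 at -0.51, Ifitm2 at -0.33, Isg20 at -0.51 and Slfn5 at -0.32, and the translation-blocking kinase Eif2ak2 at -0.58. Those higher included the interferon lambda receptor chain Ifnlr1 at 0.52, Socs3 at 0.48, the adaptor Mavs at 0.29, the peptidase Erap1 at 0.40 and Ccl2 at 0.66. By list, 9 of the 44 further induced genes were lower and 5 higher, 4 of the 18 nucleic acid sensing genes were higher and 2 lower, and 3 of the 14 receptor and signalling genes were higher. Batch differs in the mitochondrial share and in cardiomyocyte and endothelial markers as well, whose part in these calls was not tested.

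Of the same 114 genes, Ifngr1, Il10rb and Znfx1 were called in the interaction of genotype with batch (adjusted p = 0.0344, 0.0327 and 0.0472). Without FKl/l 2-2 the adjusted p was 0.0511 for Ifngr1, 0.0408 for Il10rb and 0.091 for Znfx1.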
